A study of Homo sapiens with 6 samples.

Results

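The genes described here encode the enzymes of cholesterol synthesis and of fatty acid synthesis, together with the proteins that regulate the sterol pathway. They were taken by symbol from a list of 41 genes, and 40 of these were among the 12982 genes of the expression table. ELOVL5 was not analysed here. The sterol branch held 18 enzymes, the fatty acid branch held 16 of its 17 listed genes, and 6 genes were regulators or carriers of sterol and were kept apart from both branches.

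Cholesterol is built from acetyl-CoA through mevalonate, isoprenoid diphosphates, squalene and lanosterol. Its enzymes are controlled together by the transcription factor SREBP-2, the product of SREBF2, while SREBP-1, the product of SREBF1, is best known for genes of fatty acid synthesis. SCAP carries the SREBP precursors out of the endoplasmic reticulum when sterol is low, and INSIG1 and INSIG2 retain the complex there when sterol is plentiful. Fatty acids are built from the same acetyl-CoA by ACLY, ACACA and FASN, and are then desaturated, elongated and activated to acyl-CoA by further enzymes. Colorectal cancer cells commonly make fatty acids themselves, and FASN is well known for its high expression in such tumors.

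The RNA came from SW480, an established line of human colorectal adenocarcinoma obtained from the ATCC and labelled WT in genotype. All libraries came from cells kept 24 h with DMSO, the solvent control, or with MPM-1, a mitochondria-targeting fluorescent probe that the labels also call WT4. There were 3 libraries per treatment, the dose is not given in the sources used here for this experiment, and nothing states that the libraries came from separate cultures, so the p-values measure the spread between these libraries only. A single line and a single time point were used.

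Libraries held 31733667 to 40269820 counts each. In a library of this size a gene at 0 could still have a true level of up to 3 counts, which is 0.0695 to 0.0985 CPM (the gene's count scaled for library size and TMM factor). That limit covers counting error only, since no molecular identifiers are described that would tell molecules from copies. No libraries of 1 treatment agreed within sampling noise (chi-square per gene 15.4 to 33.2). All 6 epithelial markers (EPCAM, KRT8, KRT18, KRT19, CDH1 and VIL1) were in the table, at 120 to 4096 CPM on average in DMSO and 136 to 5473 CPM in MPM-1. Of these, KRT18 and KRT19 (both 0.89 on the log2 scale), CDH1 (0.82) and KRT8 (0.42) rose, VIL1 (-0.88) fell and EPCAM did not pass an adjusted p of 0.05 (edgeR quasi-likelihood test), and their part in the other results was not tested. Of 7 markers of other cell types, 2 were in the table, ACTA2 at a mean of 13 CPM in DMSO and 11.5 CPM in MPM-1 and COL1A1 at 2.97 and 0.705 CPM, and PTPRC, CD3E, PECAM1, ALB and ADIPOQ were not in it. In bulk RNA, fewer cells that express a gene and less RNA per cell cannot be told apart.

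MPM-1 replicate 2 stood apart in these genes. It was the lowest of the 3 MPM-1 libraries in 24 of the 40 genes (60%), in 12 of the 18 sterol enzymes (66.7%) and in 4 of the 6 regulators, against 35.4% of all genes. The part of this library in the results was examined by leaving it out, and values that changed their call are given with and without it.

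More of the 40 genes fell than rose with MPM-1. Here a gene is said to have risen or fallen at an adjusted p under 0.05 (edgeR quasi-likelihood test, two-sided, Benjamini-Hochberg adjustment over all 12982 genes), and is called a DEG at an adjusted p under 0.01 when its log2 fold change also reached 1 in either direction. All changes are given as MPM-1 minus DMSO. By the first rule 8 of the 40 rose and 17 fell, where 27.7% of all genes rose and 28.8% fell (56.5% in either direction). Another 15 did not pass. With libraries scaled by total count alone the split over all genes was 2589 that rose against 4871 that fell, in place of 3596 against 3740. DEGs numbered 4 higher (OLAH, ACSL5, FADS3 and ELOVL1) and 3 lower (FASN, SREBF1 and EBP), where 5.58% of all genes were higher DEGs and 8.75% lower DEGs. The 3 MPM-1 libraries all lay above the 3 DMSO libraries in 6 genes and all below in 18, where 31% and 33.3% of all genes did so (64.3% in either direction).

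The branches are given side by side, beside the 27.7% of all genes that rose and the 28.8% that fell. In the sterol branch 2 of 18 enzymes rose (11.1%) and 11 fell (61.1%), and the median log2 fold change was -0.33 beside -0.03 over all genes. In the fatty acid branch 4 of 16 genes rose and 4 fell (25% each, near the shares of all genes), and the median was 0.02. The difference of the medians was -0.35, and no test was made of it because genes are not replicates. The sterol values were narrow in range, from -1.02 (EBP) to 0.76 (MSMO1), with 1 DEG. The fatty acid branch held 5 DEGs, from FASN at -2.17 to ACSL5 at 1.70 and OLAH beyond it, while 8 of its 16 genes did not pass. Without MPM-1 replicate 2 the medians were -0.22 and 0.07, 7 sterol enzymes fell in place of 11, and INSIG1 and MSMO1 were higher DEGs as well. Under scaling by total count alone the median of all genes moved to -0.18, that of the sterol branch to -0.48 and that of the fatty acid branch to -0.13, so that the distance of each branch from all genes kept its direction.

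**Figure D1:**
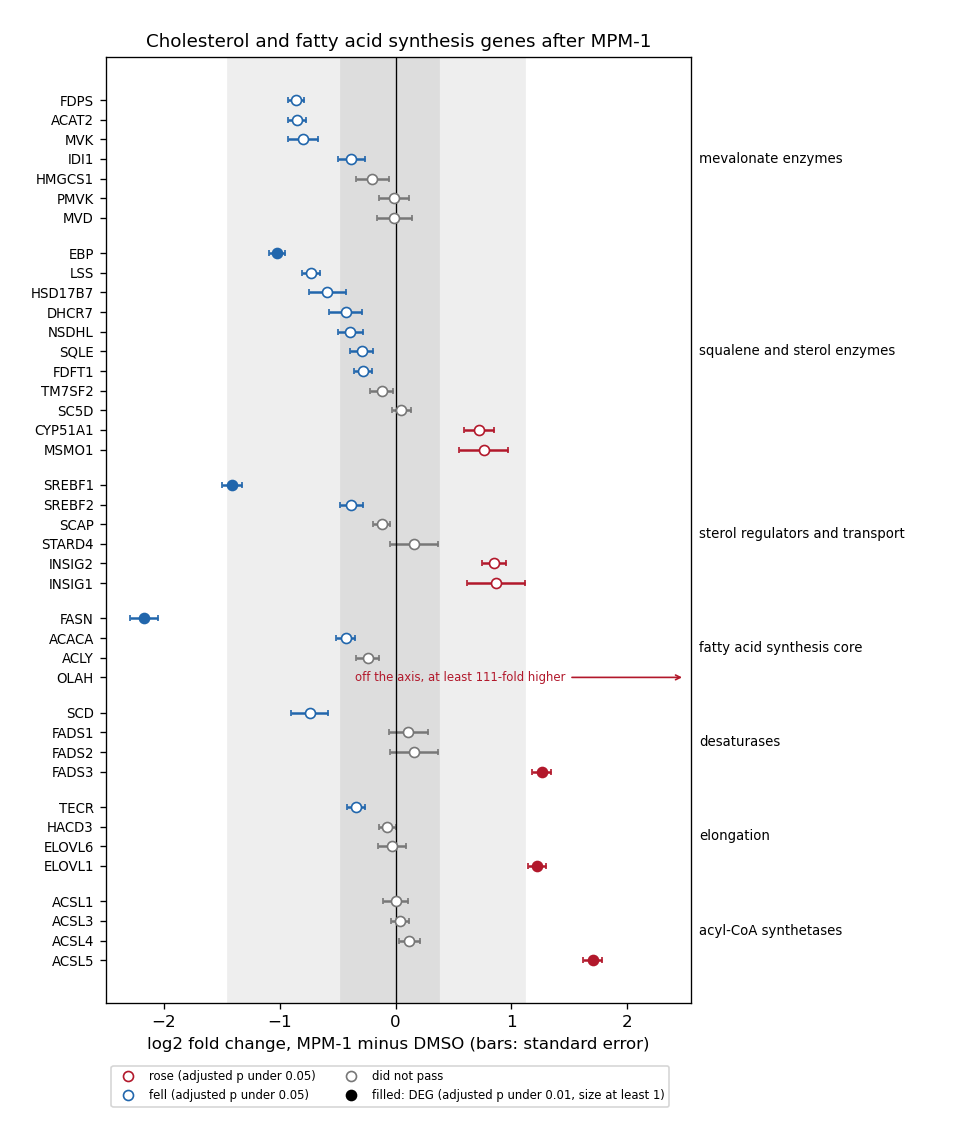
Log2 fold change of each gene (MPM-1 minus DMSO, x axis) with its standard error, by role; filled points are DEGs, and the dark and light bands hold the middle of all genes (-0.47 to 0.38 between the 25th and 75th percentiles, -1.45 to 1.11 between the 5th and 95th). FASN lies left of the light band, ACSL5, FADS3 and ELOVL1 lie right of it, and most sterol enzymes sit between 0 and -1.02.

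**Figure D2:**
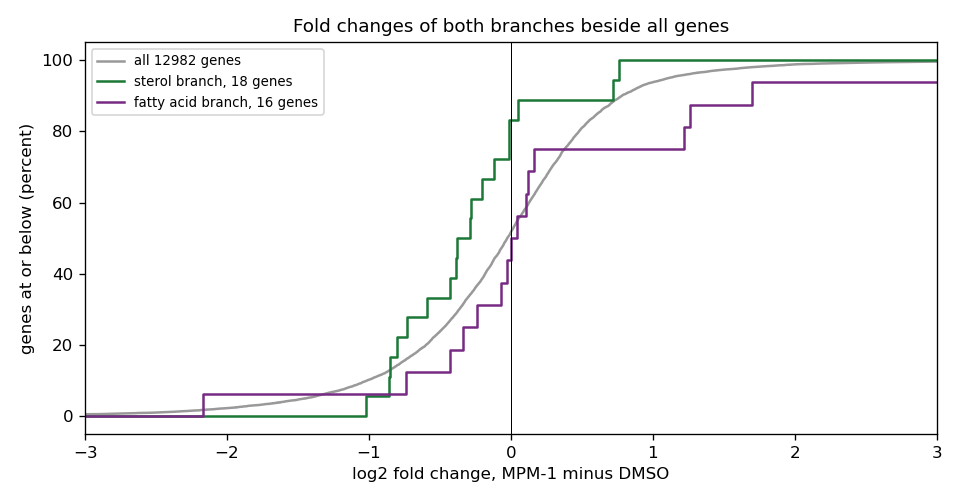
Share of genes (y axis, percent) at or below each log2 fold change (x axis, MPM-1 minus DMSO) for all 12982 genes, the 18 sterol enzymes and the 16 fatty acid genes; OLAH lies beyond the axis. Between -0.85 and 0.05 the sterol curve lies above that of all genes, while the fatty acid curve holds FASN far to the left and ELOVL1, FADS3 and ACSL5 far to the right.

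The mevalonate enzymes showed falls and no rise. Of 7 enzymes, 4 fell (ACAT2, MVK, IDI1 and FDPS) and 3 did not pass, with a median log2 fold change of -0.38. The share that fell was 57.1%, beside 28.8% of all genes, and 27.7% of all genes rose. FDPS, the synthase of farnesyl diphosphate (chromosome 1, 155308748 to 155320666, plus strand, GRCh38), fell furthest. Its CPM was 255, 249 and 238 in DMSO replicates 1 to 3 and 135, 138 and 135 in MPM-1 replicates 1 to 3. There was no overlap between the groups, and the MPM-1 libraries were nearly equal. Means were 248 ± 8.32 in DMSO and 136 ± 1.90 CPM in MPM-1 (SD, n = 3 each), and the log2 fold change was -0.86 (SE 0.07, adjusted p = 9.66e-06, edgeR quasi-likelihood test). FDPS has 8 named pseudogenes in GENCODE, none of which is in the table, and CYP51A1, HSD17B7, TECR, SCD and FADS2 have 1 to 3, which makes these counts less certain.

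ACAT2, the thiolase that joins the first acetyl-CoA units, fell by 0.85 on the log2 scale, from 54.9 ± 2.68 to 30.5 ± 1.20 CPM. MVK, mevalonate kinase, fell by 0.80, from 20.3 ± 2.26 to 11.6 ± 0.433 CPM. Both share exonic bases with a gene on the other strand (TCP1 and MMAB), and strand use in the counting is not given in the sources used here, so reads of such partners cannot be told apart. IDI1, the isomerase of isopentenyl diphosphate, fell by 0.38 (adjusted p = 0.0208, edgeR quasi-likelihood test), with 83 and 83.3 CPM in MPM-1 replicates 1 and 2 and 112 CPM in replicate 3, against 117 to 127 CPM in DMSO. IDI1 no longer passed without MPM-1 replicate 2 (-0.28, adjusted p = 0.0843, same test), nor without MPM-1 replicate 1 or DMSO replicate 1, and its adjusted p ranged from 0.00205 to 0.0843 over the alternatives.

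The remaining steps of this stretch gave values near those of DMSO. HMGCS1, which makes HMG-CoA, had 133 and 117 CPM in MPM-1 replicates 1 and 3 and 85.5 CPM in replicate 2, against 120 to 138 CPM in DMSO, and its log2 difference was -0.20 (SE 0.14, adjusted p = 0.261, edgeR quasi-likelihood test). Without MPM-1 replicate 2 it was -0.01. PMVK, phosphomevalonate kinase, and MVD, the decarboxylase after it, both stood at -0.01 (SE 0.13 and 0.15). Steps that fell thus lay on either side of steps that did not pass.

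The squalene and sterol enzymes held both directions. Of 11 enzymes, 7 fell (FDFT1, SQLE, LSS, NSDHL, HSD17B7, EBP and DHCR7), 2 rose (CYP51A1 and MSMO1), and TM7SF2 and SC5D did not pass. Thus 63.6% fell and 18.2% rose, beside 28.8% and 27.7% of all genes. EBP, the isomerase that moves the sterol ring's double bond (chromosome X, 48521158 to 48528716, plus strand, GRCh38), was the only DEG among the 18 sterol enzymes. Its CPM was 98.1, 104 and 105 in DMSO replicates 1 to 3 and 51.8, 47.8 and 51.6 in MPM-1 replicates 1 to 3. The groups did not overlap, and the gap between them was far wider than the spread within either. On the log2 scale EBP fell by 1.02 (SE 0.07, adjusted p = 5.84e-06, edgeR quasi-likelihood test), and ranged from -1.05 to -0.96 when single libraries were left out. Its size is at the DEG threshold of 1, so the DEG call itself was lost without MPM-1 replicate 2 (-0.96) while the fall was not.

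The other falls were smaller. LSS, lanosterol synthase, fell by 0.73 on the log2 scale, from 73.3 ± 3.17 to 44.3 ± 3.57 CPM. HSD17B7, which reduces the ketosteroid left after demethylation, stood at -0.59, DHCR7, the last reductase, at -0.43, and NSDHL, the dehydrogenase that removes the carboxyl group, at -0.39. FDFT1, squalene synthase, and SQLE, squalene epoxidase, stood at -0.28 and -0.29. Of these, LSS and HSD17B7 fell under each of the 14 alternatives, NSDHL and FDFT1 under 12, DHCR7 under 11 and SQLE under 8. Without MPM-1 replicate 2, DHCR7 (-0.25), FDFT1 (-0.20) and SQLE (-0.19) did not pass. TM7SF2, a sterol reductase whose exons overlap those of VPS51 on the same strand, stood at -0.12 and SC5D, a sterol desaturase, at 0.05.

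The 2 enzymes that rose act on lanosterol and on its demethylated products. CYP51A1, lanosterol demethylase, had 97.2, 114 and 94.2 CPM in DMSO replicates 1 to 3 and 200, 141 and 164 CPM in MPM-1 replicates 1 to 3. The groups did not overlap, with MPM-1 replicate 2 the nearest to DMSO. CYP51A1 rose by 0.72 on the log2 scale (SE 0.13, adjusted p = 0.00106, edgeR quasi-likelihood test). MSMO1, methylsterol monooxygenase (chromosome 4, 165327623 to 165343160, plus strand, GRCh38), had 186, 148 and 141 CPM in DMSO replicates 1 to 3 and 340, 174 and 287 CPM in MPM-1 replicates 1 to 3. MPM-1 replicate 2 lay inside the DMSO range, and the other MPM-1 libraries lay above it. The log2 fold change of MSMO1 was 0.76 (SE 0.21, adjusted p = 0.0121, same test) over all libraries and 1.01 (SE 0.13, adjusted p = 0.000258) without MPM-1 replicate 2, with adjusted p from 0.000258 to 0.0506 over the 14 alternatives. NSDHL, which acts directly after MSMO1, and HSD17B7, which acts after NSDHL, had fallen, so members of 1 demethylation series stood on both sides of DMSO.

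**Figure D3:**
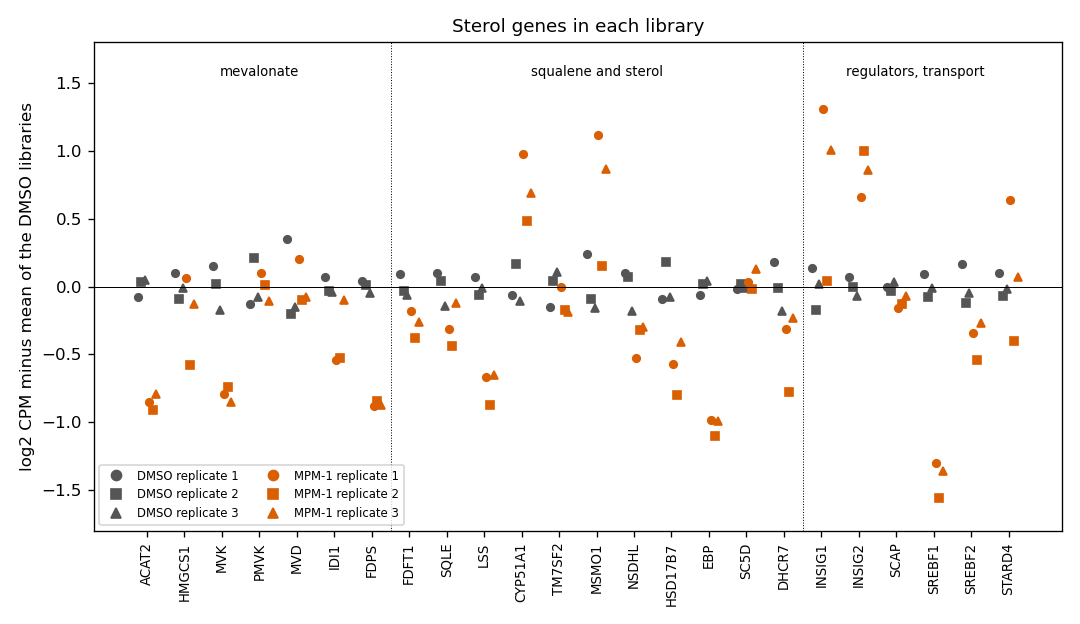
Log2 CPM of each library minus the mean of the DMSO libraries (y axis) for the 18 sterol enzymes and 6 regulators (x axis), with DMSO libraries in grey, MPM-1 libraries in orange and 1 marker shape per replicate number. EBP, FDPS, ACAT2, MVK, LSS and SREBF1 have all MPM-1 libraries well below DMSO, while in MSMO1, INSIG1 and STARD4 the square of MPM-1 replicate 2 lies far under the other MPM-1 libraries.

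Sequences upstream of the start are shown for MSMO1, which rose, and NSDHL, which fell, since they catalyse successive steps and carry the same promoter element in several copies. SREBPs bind DNA together with NF-Y, whose element is CCAAT. The sequences are from RefSeq on GRCh38.p14, 5′ to 3′ on the gene's strand, and the capitals mark CCAAT or its reverse complement ATTGG. MSMO1 is from chr4:165327419-165327622 and NSDHL from chrX:152830813-152830966, both plus strand.
MSMO1: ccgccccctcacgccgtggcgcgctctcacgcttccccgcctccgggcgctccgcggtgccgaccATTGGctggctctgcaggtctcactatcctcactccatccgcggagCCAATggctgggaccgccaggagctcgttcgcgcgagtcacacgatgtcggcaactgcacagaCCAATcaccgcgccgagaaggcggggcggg
NSDHL: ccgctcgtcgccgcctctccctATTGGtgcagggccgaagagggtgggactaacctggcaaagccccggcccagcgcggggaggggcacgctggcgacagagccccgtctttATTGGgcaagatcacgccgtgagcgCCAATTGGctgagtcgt
The printed stretch of MSMO1 holds 3 copies, and that of NSDHL holds 4, of which a pair overlaps. In windows from 250 bases before to 50 bases after the start, with both strands searched and any listed start counted, CCAAT was found in 13 of the 15 sterol enzymes with an entry (86.7%), in 10 of 14 fatty acid genes (71.4%) and in 3 of 6 regulators (50%), beside 43.1% of the 9595 tested genes with an entry. In all, 35 of the 40 genes matched. ACAT2, FDFT1, SQLE, OLAH and FASN were not among them. Of the sterol enzymes that rose, MSMO1 held CCAAT and the window of CYP51A1 did not. Only 1 spelling of the element that SREBPs bind, TCACNCCAC, was searched in the same windows, and other spellings were not searched. It was in 0 of the 15 sterol enzymes, 1 of 14 fatty acid genes (7.14%) and 1 of 6 regulators (16.7%). Of the 9595 tested genes with an entry, 145 held it (1.51%), so counts of 0 or 1 do not set these groups apart. A match of either set of letters is a description and not a binding site. A window without a match lacks only these exact letters.

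The regulators moved in both directions. SREBF1 and SREBF2 fell, INSIG1 and INSIG2 rose, and SCAP and STARD4 did not pass. That is 33.3% in each direction, near the 27.7% of all genes that rose and the 28.8% that fell. SREBF1 (chromosome 17, 17810399 to 17837002, minus strand, GRCh38) had 169, 150 and 158 CPM in DMSO replicates 1 to 3 and 64.4, 53.7 and 61.8 CPM in MPM-1 replicates 1 to 3. All MPM-1 libraries lay far below all DMSO libraries. SREBF1 fell by 1.41 on the log2 scale (SE 0.09, adjusted p = 3e-06, edgeR quasi-likelihood test), which is a level 2.65-fold lower, and left-out libraries moved it only between -1.45 and -1.31. The exons of SREBF1 overlap those of RAI1 on the other strand.

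SREBF2 (chromosome 22, 41833079 to 41907308, plus strand, GRCh38) had 119, 97.4 and 102 CPM in DMSO replicates 1 to 3 and 83.4, 72.6 and 87.8 CPM in MPM-1 replicates 1 to 3. The groups did not overlap, but the gap between the nearest libraries was smaller than the spread within DMSO. SREBF2 fell by 0.38 on the log2 scale (SE 0.10, adjusted p = 0.00937, edgeR quasi-likelihood test). On the FPKM scale, which accounts for length, SREBF1 was the more abundant of the pair in DMSO (48.6 ± 3.73 against 21.4 ± 1.89 FPKM), and both stood at a mean of 15.1 FPKM in MPM-1.

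The sequences before the starts of this pair are shown because 1 of them carries the letters of a sterol regulatory element, the site SREBPs bind. SREBF2 is from chr22:41832855-41833078 on the plus strand and SREBF1 from chr17:17837003-17837236 on the minus strand (RefSeq, GRCh38.p14), 5′ to 3′, with matches to TCACNCCAC or CCAAT on either strand in capitals.
SREBF2: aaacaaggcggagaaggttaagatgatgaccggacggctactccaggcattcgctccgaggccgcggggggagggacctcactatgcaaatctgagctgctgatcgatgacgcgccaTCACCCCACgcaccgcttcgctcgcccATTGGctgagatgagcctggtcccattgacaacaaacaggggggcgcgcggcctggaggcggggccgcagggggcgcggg
SREBF1: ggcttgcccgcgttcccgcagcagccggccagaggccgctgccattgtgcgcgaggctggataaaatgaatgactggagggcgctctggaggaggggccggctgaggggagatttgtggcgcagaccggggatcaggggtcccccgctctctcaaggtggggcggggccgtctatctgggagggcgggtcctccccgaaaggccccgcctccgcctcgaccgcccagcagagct
SREBF2 holds 1 match to TCACNCCAC, starting 133 bases before the start of transcription, and 1 CCAAT on the other strand. The printed stretch of SREBF1, which lies before the outer end of its gene span, holds neither set of letters. Sequence inside the gene span, beyond the window, was not searched. TCACNCCAC was present in 2 of the 35 genes with an entry, SREBF2 and ACSL1, beside 1.51% of the tested genes, and no match says only that these letters are not in the window.

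Both INSIG genes rose, with unlike spreads between libraries. INSIG1 (chromosome 7, 155297776 to 155310235, plus strand, GRCh38) had 246, 199 and 226 CPM in DMSO replicates 1 to 3 and 552, 229 and 450 CPM in MPM-1 replicates 1 to 3. MPM-1 replicate 2 lay inside the DMSO range, and the other MPM-1 libraries were far above it. The log2 fold change was 0.87 (SE 0.25, adjusted p = 0.0151, edgeR quasi-likelihood test). It was 1.19 (SE 0.12, adjusted p = 6.97e-05, same test) without MPM-1 replicate 2, and it did not pass without DMSO replicate 2 (0.80, adjusted p = 0.0584) or where FPKM was used (0.59 to 0.60). Over its 14 alternatives the adjusted p of INSIG1 ranged from 6.97e-05 to 0.0883.

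INSIG2 (chromosome 2, 118088452 to 118110997, plus strand, GRCh38) had 39.8, 37.9 and 36.2 CPM in DMSO replicates 1 to 3 and 60.1, 75.6 and 68.9 CPM in MPM-1 replicates 1 to 3. The groups did not overlap, and MPM-1 replicate 2, the lowest MPM-1 library for INSIG1, was the highest for INSIG2. The log2 fold change was 0.85 (SE 0.10, adjusted p = 8.18e-05, edgeR quasi-likelihood test). INSIG1 remained the more abundant of the pair per length, at 125 ± 48.4 FPKM against 24.7 ± 2.77 FPKM in MPM-1.

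STARD4, a carrier of sterol between membranes, resembled INSIG1 in its spread. It had 134, 65.1 and 89.8 CPM in MPM-1 replicates 1 to 3 against 81.4 to 91.6 CPM in DMSO, and its log2 difference was 0.16 (SE 0.21, adjusted p = 0.522, edgeR quasi-likelihood test). It passed without MPM-1 replicate 2 (0.41, adjusted p = 0.0448, in a range of 0.0448 to 0.973 over the alternatives) and turned negative without MPM-1 replicate 1 (-0.13). SCAP, the SREBP escort, stood at -0.12 (SE 0.07), and of the 14 alternatives passed only where libraries were scaled by total count alone (-0.27) or where FPKM was used.

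In the core of fatty acid synthesis the synthase fell and the thioesterase that works on it rose from the detection limit. FASN (chromosome 17, 82078333 to 82098332, minus strand, GRCh38), the multifunctional synthase that makes palmitate, had 230, 202 and 199 CPM in DMSO replicates 1 to 3 and 39.2, 46.9 and 54.1 CPM in MPM-1 replicates 1 to 3. Every MPM-1 library lay far below every DMSO library. FASN fell by 2.17 on the log2 scale (SE 0.12, adjusted p = 1.39e-06, edgeR quasi-likelihood test), a level 4.51-fold lower, and it ranged from -2.28 to -2.04 with single libraries left out. FASN had the largest fall of the 40 genes and the 231st largest of all genes.

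OLAH (chromosome 10, 15032227 to 15073852, plus strand, GRCh38) encodes the thioesterase that releases medium-chain fatty acids from FASN, and is best known from lactating mammary gland. Its counts were 2, 0 and 0 in DMSO replicates 1 to 3 and 220, 345 and 263 in MPM-1 replicates 1 to 3. OLAH was thus at or under the 3-count limit in every DMSO library and well above it in every MPM-1 library. Against 3 counts per DMSO library, a mean of 0.0786 CPM, the MPM-1 mean of 8.76 ± 2.15 CPM was at least 111-fold higher (adjusted p = 3.12e-06, edgeR quasi-likelihood test). The fitted log2 fold change, 8.71 (SE 0.57), depends on the prior count and is no bound. It was the 5th largest rise by fitted value among all genes.

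Per length, the synthase and the thioesterase reached like levels under MPM-1. FASN had 27, 24.4 and 24 FPKM in DMSO replicates 1 to 3 and 4.12, 5.12 and 5.79 FPKM in MPM-1 replicates 1 to 3, while OLAH had 3.91, 6.13 and 4.18 FPKM in the same MPM-1 libraries. The FPKM ratio of OLAH to FASN was 0.949, 1.20 and 0.721 in MPM-1 replicates 1 to 3, and 0.00126, 0 and 0 in DMSO. OLAH was higher than FASN in 1 MPM-1 library and lower in the others, so no order between them held over the libraries.

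Genes around OLAH were examined for the same pattern. Within 250000 bases of it the table listed 9 other rows (HSPA14 under 2 identifiers), and none rose. SUV39H2 (-0.65, adjusted p = 0.0129, edgeR quasi-likelihood test) and FAM171A1 (-0.71, adjusted p = 0.00944) fell, and the others did not pass, from -0.96 (ACBD7) to 0.13 (CDNF). Of 12 other thioesterases of acyl-CoA or acyl-protein in the table, 1 rose and 3 fell (8.33% and 25%, beside 27.7% and 28.8% of all genes), with LYPLA2 at 0.42 and THEM6 at -0.79 as the largest of each.

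The enzymes that feed FASN changed less. ACACA, the cytosolic carboxylase that makes malonyl-CoA, had 44.7, 47.7 and 45 CPM in DMSO replicates 1 to 3 and 36.3, 32.1 and 33.7 CPM in MPM-1 replicates 1 to 3. The groups did not overlap, and the log2 fold change was -0.43 (SE 0.08, adjusted p = 0.00185, edgeR quasi-likelihood test). The deposited FPKM of ACACA went from 8.17 ± 0.312 to 4.54 ± 0.222, a larger drop than that of its counts. ACLY, which makes cytosolic acetyl-CoA from citrate, had MPM-1 libraries below all DMSO libraries (104 to 122 against 124 to 151 CPM), with a log2 difference of -0.24 (SE 0.10, adjusted p = 0.0535, same test). ACLY passed in 6 of the 14 alternatives, from -0.25 to -0.40 in those.

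**Figure D4:**
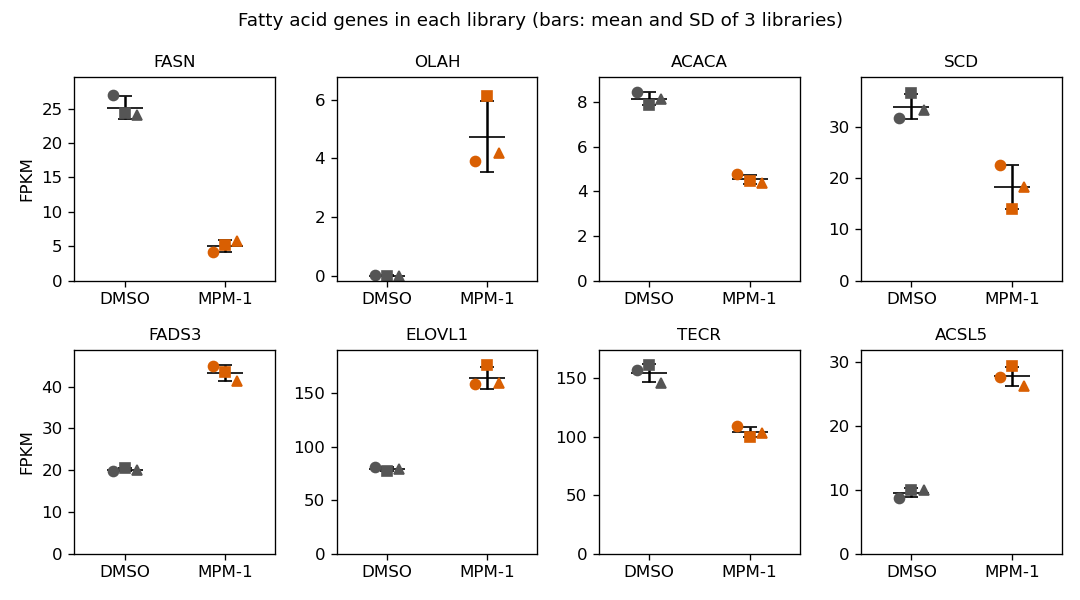
FPKM (y axis, linear, a scale of its own per gene) of 8 fatty acid genes in each DMSO (grey) and MPM-1 (orange) library, with the mean and SD of 3 libraries in black and 1 marker shape per replicate number. FASN drops from 24 to 27 FPKM to 4.12 to 5.79 FPKM while OLAH goes from at most 0.0341 FPKM to 3.91 to 6.13 FPKM. The 8 genes are those of the 16 that rose or fell, and the 8 that did not pass are not shown. The groups shown lie apart, which that choice favours, and 64.3% of all genes had groups without overlap in CPM.

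Among the desaturases, 1 rose, 1 fell and 2 did not pass (25% in each direction, near the 27.7% and 28.8% of all genes). SCD (chromosome 10, 100347124 to 100364834, plus strand, GRCh38), which makes oleate from stearate, had 171, 190 and 174 CPM in DMSO replicates 1 to 3 and 134, 79.8 and 107 CPM in MPM-1 replicates 1 to 3. All MPM-1 libraries were lower, with replicate 2 the lowest. The log2 fold change was -0.74 (SE 0.16, adjusted p = 0.00311, edgeR quasi-likelihood test), and -0.54 without MPM-1 replicate 2, when it still fell.

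FADS3, a fatty acid desaturase known for acting on sphingoid bases (chromosome 11, 61873519 to 61892051, minus strand, GRCh38), had 35.2, 35.1 and 34.2 CPM in DMSO replicates 1 to 3 and 88.6, 82.6 and 79.7 CPM in MPM-1 replicates 1 to 3. The groups were far apart and each was narrow. FADS3 rose by 1.26 on the log2 scale (SE 0.08, adjusted p = 2.01e-06, edgeR quasi-likelihood test). FADS1 and FADS2, the desaturases of polyunsaturated fatty acids, lie beside FADS3 on chromosome 11 (61799625 to 61829318 and 61792980 to 61867354) and stood at 0.11 (SE 0.17) and 0.16 (SE 0.21), neither passing. FADS1 and FADS2 overlap each other in exons on opposite strands, and FADS2 also overlaps FEN1 on the same strand, so their counts are less certain, while FADS3 overlaps no other gene's exons.

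The sequence before the start of FADS3 is shown as that of the member of the cluster that rose, from chr11:61891546-61891795 on the minus strand (RefSeq, GRCh38.p14), with CCAAT on either strand in capitals. The start used is that of RefSeq, which lies inside the longer gene span of GENCODE given above, so the stretch is upstream of the RefSeq start only.
FADS3: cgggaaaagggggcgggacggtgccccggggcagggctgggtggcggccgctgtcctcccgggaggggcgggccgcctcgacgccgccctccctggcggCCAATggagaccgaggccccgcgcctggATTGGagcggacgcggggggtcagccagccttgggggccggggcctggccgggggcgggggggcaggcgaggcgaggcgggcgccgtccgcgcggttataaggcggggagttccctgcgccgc
It holds 2 copies of CCAAT, 1 on each strand. Among the windows of the other cluster members, that of FADS2 held 1 and that of FADS1 none.

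Of the elongation enzymes, ELOVL1 rose, TECR fell, and HACD3 and ELOVL6 did not pass. These shares, 25% in each direction, were near the 27.7% and 28.8% of all genes. ELOVL1, which extends saturated very long chains (chromosome 1, 43363397 to 43368074, minus strand, GRCh38), had 123, 113 and 116 CPM in DMSO replicates 1 to 3 and 269, 287 and 263 CPM in MPM-1 replicates 1 to 3. All MPM-1 libraries lay far above all DMSO libraries. ELOVL1 rose by 1.22 on the log2 scale (SE 0.08, adjusted p = 2.37e-06, edgeR quasi-likelihood test). ELOVL6, which extends palmitate to stearate, had overlapping groups, with 28.2 to 37.3 CPM in MPM-1 and 29.9 to 35.1 CPM in DMSO, and stood at -0.03 (SE 0.12).

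TECR and HACD3 carry out the last steps of the elongation cycle, which all elongases share. TECR, the enoyl-CoA reductase, had 180, 169 and 158 CPM in DMSO replicates 1 to 3 and 142, 126 and 132 CPM in MPM-1 replicates 1 to 3, with no overlap. Its log2 fold change was -0.34 (SE 0.08, adjusted p = 0.00529, edgeR quasi-likelihood test), and its exons overlap those of DNAJB1 on the other strand. HACD3, a dehydratase, stood at -0.07 (SE 0.07). Per length, TECR was at 154 ± 7.88 FPKM in DMSO and 104 ± 4.67 FPKM in MPM-1, and ELOVL1 at 78.9 ± 2.17 and 164 ± 10.5 FPKM, so that their order was exchanged between the treatments.

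One of the 4 acyl-CoA synthetases rose (25%, near the 27.7% of all genes) and none fell, beside 28.8% of all genes. ACSL5, a synthetase of mitochondria and endoplasmic reticulum that is well expressed in intestinal epithelium (chromosome 10, 112374018 to 112428380, plus strand, GRCh38), had 29.2, 32.4 and 32.2 CPM in DMSO replicates 1 to 3 and 103, 105 and 96 CPM in MPM-1 replicates 1 to 3. The MPM-1 libraries were all far above DMSO. ACSL5 rose by 1.70 on the log2 scale (SE 0.08, adjusted p = 5.94e-07, edgeR quasi-likelihood test), a level 3.24-fold higher, and ranged from 1.65 to 1.75 with single libraries left out. The exons of ACSL5 overlap those of ZDHHC6 on the other strand.

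The other synthetases stood near 0. ACSL1, ACSL3 and ACSL4, which activate long-chain and polyunsaturated fatty acids, had log2 differences of 0.00 (SE 0.11), 0.04 (SE 0.08) and 0.12 (SE 0.09). Per length, ACSL5 (9.51 ± 0.718 FPKM) lay below ACSL3 (21.9 ± 1.81 FPKM) and near ACSL4 (11.6 ± 0.771 FPKM) in DMSO. In MPM-1 it was the highest of the family, at 27.7 ± 1.51 FPKM against 21.4 ± 1.91 FPKM for ACSL3.

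Neighbouring pathways were described from lists of related genes, read against the same 27.7% of all genes that rose and 28.8% that fell. Of 23 other genes of synthesis and carbon supply, 6 rose and 13 fell, with the largest rise in ME1 (1.42), the malic enzyme that supplies NADPH, and the largest fall in ELOVL3 (-3.25), an elongase, which went from 4.16 ± 0.558 to 0.434 ± 0.159 CPM. Of 11 genes of SREBP processing and sterol sensing, 2 rose and 8 did not pass, and the rise was largest in SEC24D (0.88), a coat protein of vesicles leaving the endoplasmic reticulum.

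Genes that store, export or burn lipid were mixed as well. Of 20 genes of triglyceride and lipid droplets, 5 rose and 6 fell. PLIN2, the coat protein of lipid droplets, had 66.3, 67.3 and 65.3 CPM in DMSO replicates 1 to 3 and 289, 384 and 347 CPM in MPM-1 replicates 1 to 3, a log2 fold change of 2.36 (SE 0.11, adjusted p = 5.34e-07, edgeR quasi-likelihood test). DGAT2, which makes triglyceride, had 23.3, 27.1 and 23.1 CPM in DMSO and 1.41, 3.87 and 4.68 CPM in MPM-1, a log2 fold change of -2.88 (SE 0.34, adjusted p = 9.34e-05, same test). These groups did not overlap for either gene.

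Of 13 genes of sterol efflux, esterification and lysosomal export, 4 rose and 2 fell, with ABCG1 (1.73), a sterol exporter at 0.706 ± 0.201 CPM in DMSO and 2.34 ± 0.289 CPM in MPM-1, and NR1H3 (-0.82), the oxysterol receptor LXR alpha, as the largest of each. Of 21 genes of fatty acid oxidation, 5 rose and 9 fell, with HADHB (0.63), a subunit of the mitochondrial trifunctional protein, and HADH (-1.35), a hydroxyacyl-CoA dehydrogenase, as the largest of each. No list of these moved in 1 direction only.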

How the data were processed

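RNA of SW480 cells treated for 24 h with either DMSO or MPM-1 was compared in 3 libraries each, with groups and replicate numbers taken from the sample titles. The authors deposited 1 table with a whole-number count per gene and library, without normalization, and with the FPKM, in which the authors divided fragments by transcript length and by library total. They also deposited an FDR (an adjusted p-value) and a log2 fold change per gene for the same comparison, and neither was used. The submitters' processing notes name HISAT2, DESeq2 and the mouse build mm10, while the identifiers are human, and the counting tool and annotation are not given in the sources used here. Coordinates are therefore those of GENCODE release 29 (GRCh38), in which 12127 of the 12982 identifiers were found. The other 855 are NewGene identifiers. The number of per-sample columns not used was 0.

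Counts were tested with edgeR 4.0.16 (R 4.3.3; glmQLFit and glmQLFTest, TMM scaling, no covariate, no filter beyond that of the table), and p-values were adjusted by Benjamini-Hochberg over all 12982 genes. Log2 CPM used a prior count of 2. Alternatives were DESeq2 1.42.0 size factors and test, scaling by total count, a mean of at least 50 counts, a block for the replicate number, leaving out single libraries, and limma 3.58.1 on log2(FPKM + 0.1) or log2(FPKM + 1) with a mean of at least 1 FPKM or without that filter. On that scale the change of low genes is understated. The test was tried on simulated data first. The 40 genes, their role groups and the related lists were chosen with earlier results of these data known, so no list was tested. Values in every library were given for DEGs, for the largest rise and fall in each of the 7 role groups, for both INSIG and both SREBF genes and for FASN and OLAH. CYP51A1, ACACA and a few other genes were shown by library in addition, chosen after their values were seen. In each related list the largest rise and fall were named, except for 1 gene of SREBP processing and sterol sensing that is not reported here. Promoter windows came from RefSeq (GRCh38.p14), and the stretches printed leave out bases that GENCODE places in a UTR.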

Additional observations from a re-analysis of the deposited data

How the results depend on the processing

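The falls of FASN, SREBF1, EBP, FDPS, ACAT2, MVK, LSS, HSD17B7, SREBF2, ACACA, SCD and TECR and the rises of OLAH, ACSL5, FADS3, ELOVL1, INSIG2 and CYP51A1 passed under each of the 14 alternatives. Nothing states whether libraries of the same replicate number are paired. Deviations from the group means of same-numbered libraries correlated at 0.024, 0.139 and -0.068 over 12380 genes. Those of differently numbered libraries correlated at -0.155 to 0.138, and such weak values cannot settle whether there is a pairing. With the replicate block 10 sterol enzymes fell in place of 11 (SQLE did not pass) and MVD stood at 0.01.

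Scaling by total count alone gave 5 lower DEGs among the 40 genes and medians of -0.48 (sterol branch) and -0.13 (fatty acid branch, reversed). With limma on log2(FPKM + 0.1), 2345 of all genes rose, 1 regulator rose, and the medians were -0.48 and -0.08 (reversed). With log2(FPKM + 1), 1067 genes were DEGs, 2358 rose, 1 regulator rose, and the medians were -0.47 and -0.07 (reversed). Without the FPKM filter 1 sterol enzyme rose, since MSMO1 (0.57) did not pass, 1 regulator rose, and the medians were -0.48 and -0.08 (reversed). With single libraries left out, 7 to 11 sterol enzymes fell (7 without MPM-1 replicate 2) and 1 to 3 regulators rose (1 without DMSO replicate 2). The cause of these shifts was not tested.

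Signs turned only in genes that had not passed. PMVK and MVD stood at 0.01 with DESeq2 size factors and with DESeq2's test. With total counts, SC5D was at -0.10, FADS1 at -0.05, ACSL1 at -0.15, ACSL3 at -0.11 and ACSL4 at -0.04. On log2(FPKM + 0.1), filtered or not, they were at -0.13, -0.07, -0.14, -0.03 and -0.03, and on log2(FPKM + 1) at -0.13, -0.06, -0.12, -0.03 and -0.03. With a mean of at least 50 counts ACSL1 was at 0. With single libraries left out, PMVK ranged from -0.07 to 0.11, MVD from -0.11 to 0.19, STARD4 from -0.13 to 0.41, FADS1 from -0.08 to 0.29, ELOVL6 from -0.14 to 0.06 and ACSL1 from -0.05 to 0.06.

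Depth limits OLAH in DMSO, where no library had more than 2 counts, and ELOVL3 and ABCG1, which had few counts in 1 treatment. Reads of genes that overlap in exons cannot be told apart, and the dose and the independence of the cultures are not known here.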

Other observations

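Fatty acids are also made inside mitochondria, by a separate set of enzymes that work on an acyl carrier protein. These genes were picked out of the related list after their values were seen. CBR4 (-1.14, adjusted p = 3.99e-05, edgeR quasi-likelihood test), MCAT (-1.12, adjusted p = 2.66e-05), MECR (-1.11, adjusted p = 0.000435) and OXSM (-0.41, adjusted p = 0.0247) fell, while HSD17B8, which forms the ketoacyl reductase with CBR4, stood at -0.05. Mean CPM went from 43.9 to 19.9 for CBR4, from 36.2 to 16.7 for MCAT, from 24.9 to 11.5 for MECR and from 24.5 to 18.4 for OXSM.

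Paralogs of the listed enzymes, also picked after their values were seen, did not follow their relatives in each case. ACSL6 fell by 2.68 on the log2 scale (15.7 to 2.45 CPM) where ACSL5 rose. ELOVL7 rose (1.17, 17.5 to 39.5 CPM) and ELOVL3 fell. SCD5 fell by 0.91 like SCD. ACACB, the carboxylase at the mitochondrial surface, fell by 1.51 from a low level (4.61 to 1.62 CPM). In the elongation cycle HACD2 (0.91), a dehydratase, and HSD17B12 (0.72), its ketoacyl-CoA reductase, rose where TECR fell, while the dehydratase HACD1 (0.08, adjusted p = 0.619, edgeR quasi-likelihood test) did not pass.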
